A study of Mus musculus with 14 samples.

Results

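The genes of the mitochondrial ribosomal proteins were examined in liver RNA of male Apoe-deficient C57BL/6 mice. Members were the genes whose symbol starts with Mrpl or Mrps followed by a digit, and 78 of the 17552 genes of the deposited table met this rule, the same number as the protein-coding Mrpl and Mrps genes of RefSeq. Both groups lacked apolipoprotein E and received a Western diet. The labels give an age of 8 weeks and 8 weeks of feeding. The study's methods give about that age for the mice used and a longer feeding. If feeding began at that age, the mice were older when the livers were taken. The control diet had no addition. The other diet held erythrodiol, a triterpene of the olive, at a dose of 10 mg per kg of mouse. Each group had 7 libraries of polyA RNA, each made from a pool of a few mice, and whole liver holds all the cell types of the organ. The table of genes gives a single expected count for each group, summed over its 7 libraries, so that neither replicate values nor a test between groups could be obtained. Values are therefore given with counting intervals at 95%, which cover counting error only and not the spread between pools.

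Mitochondria carry their own ribosome, which makes the few proteins encoded by mitochondrial DNA, all of them subunits of the respiratory chain or of ATP synthase. Its proteins are encoded in the nucleus, made in the cytosol and imported, and they assemble with mitochondrial rRNA into a large subunit (Mrpl genes), where peptide bonds form, and a small subunit (Mrps genes), where the messenger is read. Some have counterparts in bacterial ribosomes and others were acquired in mitochondria. The liver is rich in mitochondria, and human variants in several of these genes cause mitochondrial disease. The symbols do not follow the subunits in every case. Mrps30 and Mrps18a are proteins of the large subunit and were counted there, whereas Mrps36 belongs to the 2-oxoglutarate dehydrogenase complex and was counted in neither. The large subunit thus had 51 members, the small subunit 26, and the members lay on 17 chromosomes. In the table's own annotation, 77 of the 78 genes had a mitochondrial cellular component.

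Reads and depth were as follows. Control libraries held between 34856340 and 55244294 clean reads and erythrodiol libraries between 47669656 and 48058606. Of these, between 64.33% and 81.43% mapped to genes in the control and between 72.96% and 76.13% with erythrodiol. The libraries contributed between 9.12% and 17.3% of the control sum and between 13.9% and 14.6% of the erythrodiol sum, and no single library could be taken out of the gene values. The columns summed to 122889032 and 124686047 counts. Hepatocyte markers (6 of 6 found) summed to 102217 and 101349 counts per 1000000 counts of the column (CPM) in control and erythrodiol. Markers of Kupffer cells, the resident macrophages of the liver (5 of 5 found, none at 0), summed to 822 CPM in the control and 507 with erythrodiol, with 0 of 5 higher with erythrodiol. The 4 endothelial markers summed to 123 and 125, the 4 stellate cell markers to 420 and 401, the 4 bile duct markers to 14.7 in the control and 0.816 times that with erythrodiol, the 4 lymphocyte markers to 3.78 and 3.85, the 3 neutrophil markers to 9.37 and 4.47, the 4 acinar markers to 13.0 and 9.46, and the 3 of 4 muscle markers that were found to 0.269 and 0.0240, with 2 at 0 in a group. The part of these differences in the values of the members was not tested, and fewer cells of a type and less RNA per cell cannot be told apart in bulk liver.

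As a family, the members had nearly the same level in both groups, while the median gene of the table was somewhat higher with erythrodiol. All 78 members passed the minimum of 100 counts over both groups, the lowest value of any of them being 834 counts (Mrps6 in the control). Summed over the family, 260306 counts in the control stood against 248167 with erythrodiol, or 2118 and 1990 CPM, a log2 ratio of -0.09 (counting interval -0.10 to -0.08). The median member had a log2 ratio of 0.01, against 0.16 for the 13291 genes of the table with at least 100 counts. Members with a higher scaled count with erythrodiol numbered 40 of 78 (51.3%), against 71.2% of all genes. With the trimmed mean of M values (TMM) of edgeR, which places the median gene near 0, all ratios were 0.16 lower on the log2 scale, the median member was at -0.14 and 19 of 78 were higher. The 21 members with a log2 ratio between 0 and that shift therefore lay above the control with the column totals and below it with TMM.

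With the column totals, no member reached a 2-fold difference in either direction, which 0.218% of all genes did upwards and 0.549% downwards. With each of the 3 other scalings tried, 1 member, Mrps14, was past 2-fold downwards, at log2 ratios from -1.11 to -1.04. The share of all genes past 2-fold under these scalings is not given here. A count at least 25% higher was seen for 2 of 78 members (2.56%, against 24.4% of all genes) and a count at least 20% lower for 18 (23.1%, against 8.89% of all genes). The counting interval lay above 0 for 28 members (35.9%, against 54.6% of all genes), below 0 for 33 (42.3%, against 17.4% of all genes) and held 0 for 17. It narrows with the count of a gene, so that these shares depend on depth. The 2 members at least 25% higher were Mrps2, a protein of the small subunit with a bacterial counterpart, and Mrpl38, a protein of the central protuberance of the large subunit. Mrps2 had 4196 control and 5463 erythrodiol counts, a log2 ratio of 0.36 (0.30 to 0.42). Mrpl38 had 5860 and 7455 counts, a log2 ratio of 0.33 (0.28 to 0.38). They were named after their values were seen, and under TMM 0 members were past this limit.

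**Figure D1:**
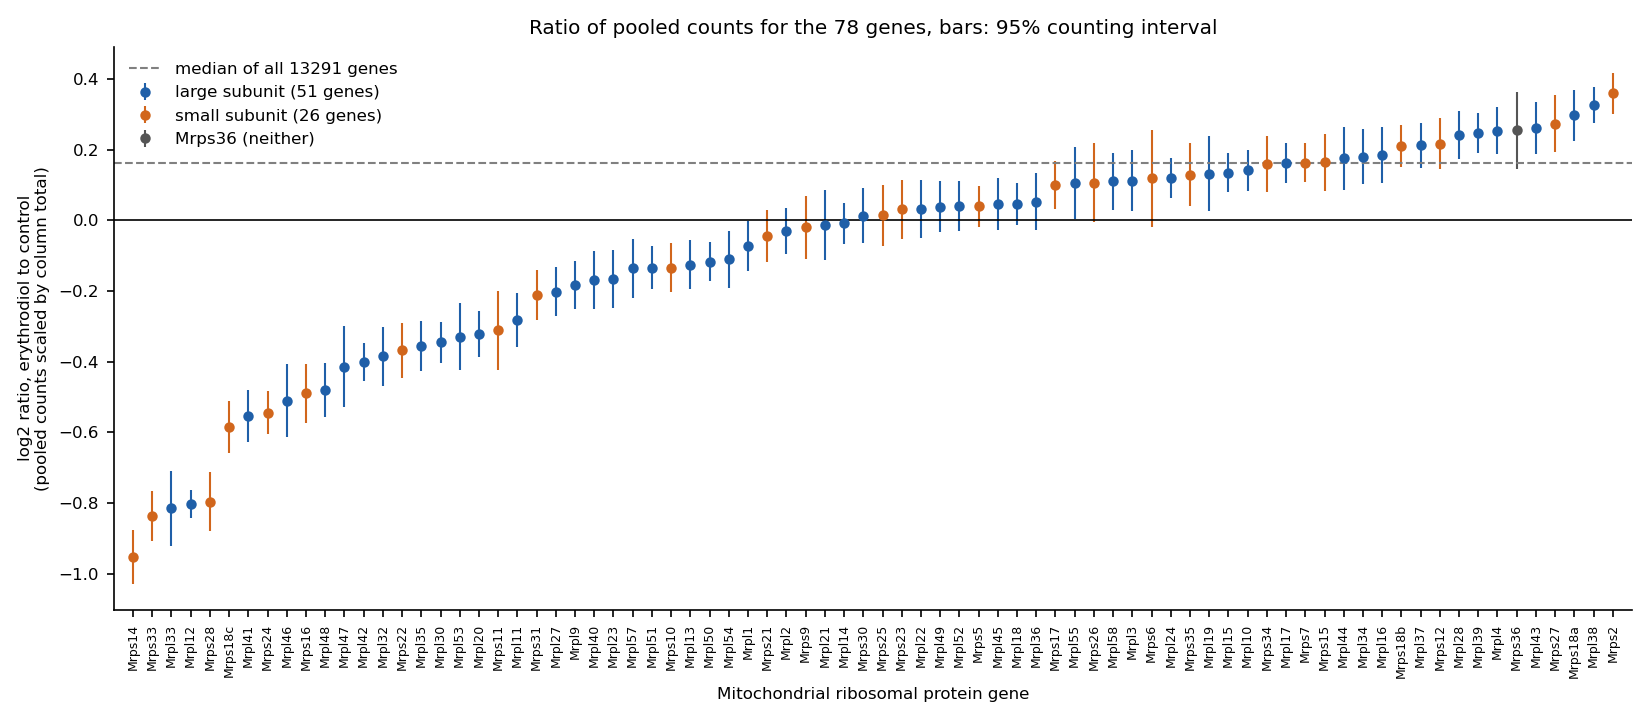
Log2 ratio of the pooled counts, erythrodiol to control, scaled by the column totals (y axis), for each of the 78 genes in order of its ratio (x axis). Points are coloured by subunit, bars are counting intervals at 95%, and the dashed line is the median of all 13291 genes at 0.16. The values run from -0.95 for Mrps14 to 0.36 for Mrps2, and large and small subunit genes are mixed along the order.

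By the ratio scaled by the column totals, the 5 genes at the low end of this plot stood apart from the rest of the family. They came from both subunits. Mrps14, a protein of the head of the small subunit, had 4067 control and 2132 erythrodiol counts. Its level was thus 1.94-fold lower with erythrodiol (log2 ratio -0.95, interval -1.03 to -0.88), the lowest ratio of the family. The gene lies on chr1:160195215-160201186 of GRCm38. Mrps33, a mitochondrial addition to the small subunit, had 4470 and 2539 counts, 1.79-fold lower (log2 ratio -0.84). Mrpl33, a small protein of the large subunit, had 1946 and 1122 counts, 1.76-fold lower (log2 ratio -0.82). It falls outside the rule for named genes and was added after its value was seen. Mrpl12, which forms the flexible stalk that recruits translation factors to the large subunit, had 14581 control and 8484 erythrodiol counts. This was 1.74-fold lower (log2 ratio -0.80, interval -0.84 to -0.76). Mrps28, a small subunit protein, had 3113 and 1819 counts, also 1.74-fold lower (log2 ratio -0.80). The next gene, Mrps18c, was at -0.58.

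Levels per length ranked the members in nearly the same order in the 2 groups. Values were expressed as RPKM, that is counts per kilobase of gene length scaled to the column total, computed from the deposited counts and lengths. The median member had 22.1 RPKM in the control, against 4.73 for all genes with at least 100 counts. Mrpl12 was the most abundant, with 123 RPKM in the control and 70.7 with erythrodiol. It accounted for 5.60% of all counts of the family in the control and 3.42% with erythrodiol. Without it, the summed log2 ratio of the family was -0.06 in place of -0.09. Behind it came Mrpl42, a mitochondrial addition to the large subunit, with 71.4 and 54.0 RPKM, and Mrpl52, another such addition, with 62.4 and 64.1. Mrpl30 had 61.2 and 48.2 RPKM and Mrpl14 had 57.3 and 57.0, both of them large subunit proteins with bacterial counterparts. Mrpl12 kept the highest level with erythrodiol, but the order of the next ones differed, Mrpl52 and Mrpl14 standing above Mrpl42. At the low end, Mrpl19 had 2.24 and 2.46 RPKM, Mrps25 had 2.84 and 2.87 and Mrpl17 had 5.78 and 6.47. These 3 genes were also the 3 longest of the family, with 5016, 6076 and 6712 bases in the table, and their counts were within the range of the other members. Spearman's rho between the 2 groups was 0.92 over the 78 genes, which share their lengths and libraries.

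**Figure D2:**
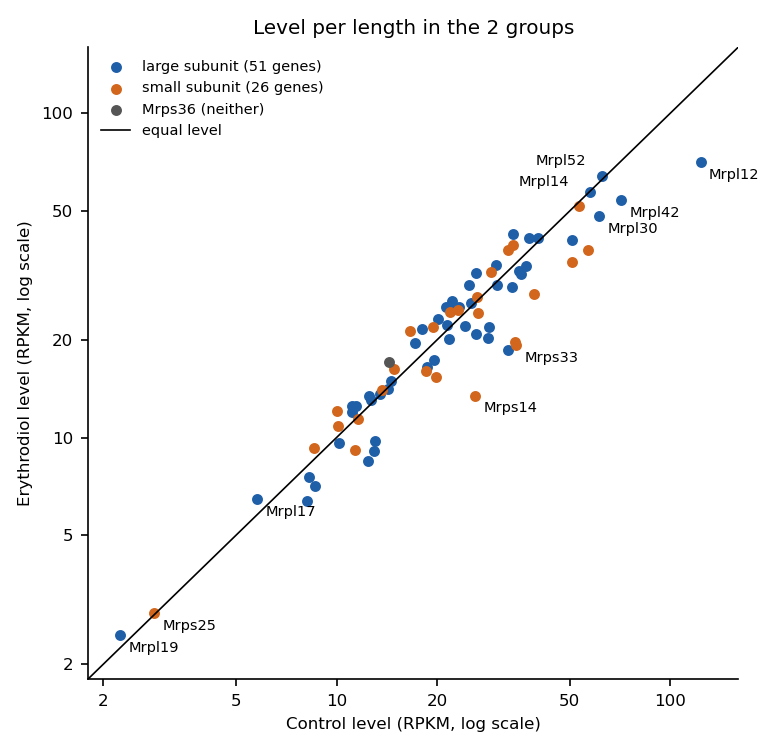
Level of each of the 78 genes per length in the control (x axis, RPKM, log scale) and with erythrodiol (y axis, RPKM, log scale), with a line of equal level. Mrpl12 has the highest level in both groups and lies below the line, at 123 and 70.7 RPKM, while Mrpl19, Mrps25 and Mrpl17 lie at the low end and close to it.

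Members are short genes, and in these libraries the ratio depended on gene length. The median member had 1056 bases, against 2863 for the other genes. Among non-members, the median log2 ratio was -0.27 under 1000 bases, 0.04 from 1000 up to 2000 and 0.22 from 2000 upwards. For each gene the median of the 500 non-members nearest in length was therefore subtracted. On this scale the median member was at 0.02, and 41 of 78 members (52.6%) lay above genes of like length, as did 50% of all genes. At least 25% above genes of like length were 7 members (8.97%, against 6.11% of all genes), and at least 20% below them were 12 (15.4%, against 13.5% of all genes). Short genes passed these limits more often. Of 828 non-members under 1000 bases, 156 lay that far above and 213 that far below. Of 3003 non-members of 1000 up to 2000 bases, 256 lay that far above and 519 that far below. The spread of the members on this scale was 0.32 (SD over the 78 genes). By length it was 0.32 under 1000 bases, 0.30 from 1000 up to 2000 and 0.25 from 2000 upwards. For non-members these SDs were 0.47, 0.33 and 0.25. Members under 1000 bases were thus less spread than other genes of that length. By its median the family thus stood where genes of its length stood, but its short and its long members lay on opposite sides, as given next.

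Within the family the values by length were as follows. The 34 members under 1000 bases had a median log2 ratio of -0.08, the 33 members of 1000 up to 2000 bases 0.05 and the 11 members of at least 2000 bases -0.07. Relative to genes of like length, these medians were 0.19, 0.05 and -0.25, and 21 of 34, 19 of 33 and 1 of 11 lay above. The exception among the long members was Mrps2. Long members with low ratios were Mrpl41, Mrpl35 and Mrpl11. Mrpl41, a mitochondrial addition to the large subunit, had 3710 and 2565 counts, a log2 ratio of -0.55 and of -0.71 relative to genes of like length. Mrpl35, a large subunit protein with a bacterial counterpart, had 3697 and 2930 counts, with -0.36 and -0.56 on the 2 scales. Spearman's rho between length and log2 ratio was 0.23 over the 78 members, 0.32 over 2061 non-members under 1500 bases and 0.44 over 12909 non-members of any length. Between length and the value relative to genes of like length, rho was -0.33 over the members and 0.02 over the 2061 non-members under 1500 bases. For the shortest members the like-length genes reach well above their own length. For Mrpl52, of 412 bases, they span 333 to 841 bases.

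**Figure D3:**
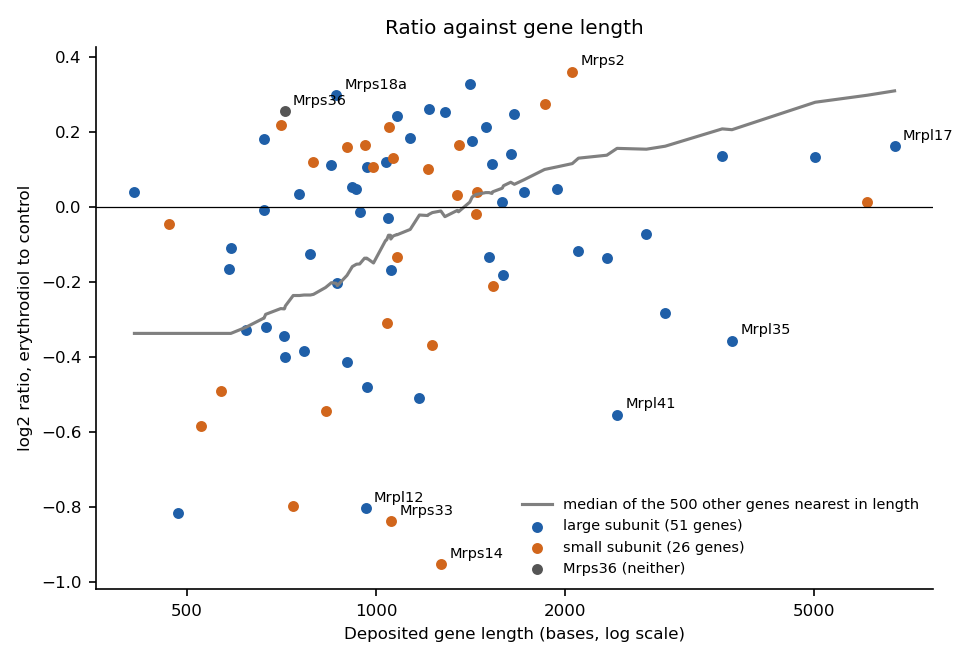
Log2 ratio of erythrodiol to control (y axis) of the 78 genes against the deposited gene length in bases (x axis, log scale), with the median of the 500 other genes nearest in length as a grey line. The line climbs from -0.34 at the short end to 0.31 at the long end, and the members of at least 2000 bases lie below it except Mrps2.

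Relative to genes of like length, the lowest values were those of Mrps14 (-0.94), Mrps33 (-0.75), Mrpl41 (-0.71), Mrpl12 (-0.67), Mrpl35 (-0.56) and Mrps28 (-0.56). Only 1.60% of the 500 genes of like length lay below Mrps14. Mrpl33, of 484 bases, was not among these lowest genes. It was at -0.48, with 12% of its 500 genes of like length below it. At the other end stood Mrps36, with 1263 control and 1529 erythrodiol counts, a log2 ratio of 0.25 and of 0.53 relative to genes of like length. It is the member that is not a ribosomal protein, and pseudogenes of it are annotated in the genome but are absent from the table, so that reads shared with them were not separated. Mrps18a followed with 2770 and 3453 counts (0.30, and 0.50 relative to genes of like length). Mrps12, the protein at the decoding centre of the small subunit, had 2923 and 3447 counts (0.22, and 0.49). Mrpl34, a short protein of the large subunit, had 2456 and 2823 counts (0.18, and 0.48). Of the 500 genes of like length, 92.4% lay below Mrps36, 92.8% below Mrps18a, 91.2% below Mrps12 and 89.8% below Mrpl34. Mrpl52 (0.04, and 0.38) and Mrps6 (0.12, and 0.35), a protein of the platform, closed this group. The counting intervals of the log2 ratios of these last 2 genes held 0, and both ratios were negative under TMM.

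Promoters of the family were searched for the motifs of 3 factors known to act on nuclear genes of mitochondria. Of the 78 members, 69 had a promoter sequence in RefSeq (GRCm38.p6), of 250 bases before and 50 after the start. The motif of ETS factors such as GABP, CCGGAAG on either strand, was found in 26 of the 69 members (37.7%), in 18.8% of the promoters of non-members with at least 100 counts and in 9.93% of all promoters. The core of the NRF1 motif, CGCATGCG, which reads the same on both strands, was found in 7 members (10.1%), against 4.04% and 2.07%. The core of the YY1 motif, AGATGGCGG on either strand, was found in 5 (7.25%), against 2.57% and 1.24%. Members with the ETS motif had a median of 0.11 relative to genes of like length and those without it -0.04. For the NRF1 core these medians were 0.08 and 0.00, and for the YY1 core 0.17 and 0.00. These medians were not matched for GC content, and those of non-members with and without the motifs are not given. A link between motif and ratio was not tested. The 120 bases before the start are shown for the lowest member (Mrps14) and the 2 highest (Mrps36 and Mrps18a) relative to genes of like length, for the most abundant (Mrpl12), and for the 4 with more than a single motif in this stretch (Mrpl22, Mrpl32, Mrpl43 and Mrpl53), 5′ to 3′ on the strand of the gene. Capitals mark the ETS motif and the NRF1 core, and stretches without capitals hold none of the motifs in these bases.
Mrps14, chr1:160195095-160195214, plus strand: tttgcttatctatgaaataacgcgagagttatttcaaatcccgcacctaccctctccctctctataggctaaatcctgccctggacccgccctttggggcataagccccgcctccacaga
Mrpl12, chr11:120484517-120484636, plus strand: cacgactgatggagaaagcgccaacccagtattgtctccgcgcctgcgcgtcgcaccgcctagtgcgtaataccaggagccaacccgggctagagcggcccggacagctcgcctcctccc
Mrps36, chr13:100744660-100744779, minus strand: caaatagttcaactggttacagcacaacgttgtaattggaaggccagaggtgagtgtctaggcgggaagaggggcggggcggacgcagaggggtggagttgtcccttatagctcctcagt
Mrps18a, chr17:46110884-46111003, plus strand: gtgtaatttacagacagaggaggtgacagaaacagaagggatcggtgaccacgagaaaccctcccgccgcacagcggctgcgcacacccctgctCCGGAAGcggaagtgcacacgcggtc
Mrpl22, chr11:58171544-58171663, plus strand: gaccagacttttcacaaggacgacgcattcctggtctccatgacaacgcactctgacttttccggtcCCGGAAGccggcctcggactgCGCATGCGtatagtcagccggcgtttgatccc
Mrpl32, chr13:14613038-14613157, minus strand: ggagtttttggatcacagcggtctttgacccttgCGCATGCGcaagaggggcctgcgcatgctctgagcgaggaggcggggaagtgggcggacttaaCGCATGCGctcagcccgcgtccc
Mrpl43, chr19:45006443-45006562, minus strand: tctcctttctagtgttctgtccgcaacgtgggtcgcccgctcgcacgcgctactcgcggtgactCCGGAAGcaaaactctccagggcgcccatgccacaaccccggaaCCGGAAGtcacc
Mrpl53, chr6:83108988-83109107, plus strand: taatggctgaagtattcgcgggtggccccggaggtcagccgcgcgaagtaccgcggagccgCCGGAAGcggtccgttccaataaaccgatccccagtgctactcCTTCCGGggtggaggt
Mrpl22 encodes a protein at the exit of the nascent chain tunnel. Its stretch holds an ETS motif that starts 53 bases and an NRF1 core that starts 32 bases before the start used. That start lies inside the annotated gene, which begins at chr11:58170043, so the stretch is not upstream of the whole gene. The stretch of Mrpl32, which also lies at the exit, holds NRF1 cores 86 and 23 bases before its start. Mrpl22 had 2350 control and 2439 erythrodiol counts, a log2 ratio of 0.03, and Mrpl32 had 2702 and 2100 counts, a log2 ratio of -0.38. Mrpl43, with ETS motifs 56 and 12 bases before the start, had 2684 and 3262 counts and a log2 ratio of 0.26. Mrpl53, a mitochondrial addition to the large subunit with ETS motifs 59 and 16 bases before the start, had 2000 and 1615 counts and a log2 ratio of -0.33. Relative to genes of like length, Mrpl22 was at 0.27, Mrpl32 at -0.15, Mrpl43 at 0.28 and Mrpl53 at -0.01. The interval of Mrpl22 held 0, and its ratio was below 0 under TMM. Mrpl22, Mrpl32, Mrpl43 and Mrpl53 were named for these motifs and fall outside the rule for named genes.

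Several members share their promoter region with a neighbour on the opposite strand. In GENCODE, 33 of the 78 members (42.3%) had the start of another protein-coding gene on the opposite strand within 1000 bases of their own, against 15.1% of 12911 non-members. In 28 of these pairs both genes had at least 100 counts, and in 14 of them the 2 genes had ratios on the same side of 0. Mrps12 lies 172 bases from Sars2, the seryl-tRNA synthetase of mitochondria, and both were higher with erythrodiol. Sars2 had 1051 control and 1487 erythrodiol counts, a log2 ratio of 0.48, against 0.22 for Mrps12. Mrps11 and Mrpl46 are neighbours within the family, and both were lower, with 1452 and 1188 counts (log2 ratio -0.31) and 1861 and 1326 counts (-0.51). Mrpl32 and Psma2, a proteasome subunit, were at -0.38 and -0.30. Mrps18c lies 29 bases from Helq, a DNA helicase, and here the values were opposite, -0.58 for Mrps18c and 0.50 for Helq. Apart from that of Mrps12, the pairs shown were picked with their values known. The libraries were not stated to keep the strand of the RNA, so that reads from overlapping ends of such pairs could not be told apart.

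Neither subunit stood clearly apart from the other, and their sums and medians differed in opposite directions. The 51 large subunit genes had a median log2 ratio of -0.01, with 25 higher with erythrodiol, and summed to 1461 CPM in the control and 1380 with erythrodiol. The 26 small subunit genes had a median of 0.02, with 14 higher, and summed to 647 and 598 CPM. The log2 ratios of the sums were -0.08 (-0.09 to -0.07) for the large and -0.11 (-0.13 to -0.10) for the small subunit, so that the small subunit had the lower sum and the higher median. The difference between the medians, large minus small, was -0.03, and relative to genes of like length it was -0.02. The 46 members listed with a bacterial counterpart had a median of -0.02 and the 32 others 0.03, with 21 and 19 of them higher with erythrodiol. The 32 others include Mrps36, which is not a ribosomal protein, and Mrps18a and Mrps18b, which are paralogs of bacterial S18.

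By position in the ribosome, short lists of proteins were drawn up for some regions, and many members were in none. Of these regions the stalk had the lowest ratio of summed counts, and its 3 listed genes were unequal. Mrpl10, the protein that anchors the stalk, had 4585 control and 5131 erythrodiol counts, a log2 ratio of 0.14. Mrpl11, at the base of the stalk, had 3069 and 2559 counts (-0.28), and Mrpl12, of which several copies bind to Mrpl10, was at -0.80 as above. Together they went from 181 to 130 CPM, a log2 ratio of -0.48 (-0.51 to -0.45). Without Mrpl12 the sum was 7654 counts in the control and 7690 with erythrodiol (-0.01, -0.06 to 0.03), so that the ratio of the stalk rested on this gene. The 5 proteins listed for the head of the small subunit, which are not all of its proteins, summed to 160 and 133 CPM (-0.27), with 1 of 5 higher. These were Mrps14, Mrps24, which lines the entry of the messenger, Mrps10, Mrps9 and Mrps7. Mrps24 had 5193 and 3614 counts (-0.54), Mrps10 and Mrps9 were at -0.13 and -0.02, and Mrps7 had 4821 and 5478 counts (0.16). Members of the stalk and of the head thus ranged widely within each region.

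The 4 proteins listed for the body of the small subunit summed to 112 CPM in both groups, although Mrps16 and Mrps12 were apart. Mrps16, in which human variants cause a respiratory chain disease, had 2713 and 1960 counts (-0.49), against 0.22 for Mrps12. Relative to genes of like length, Mrps16, of 566 bases, was at -0.15 and Mrps12 at 0.49. The 5 listed platform proteins had a median of -0.05 (0.29 relative to genes of like length). The 7 listed around the tunnel exit had 4 of 7 higher and a median of 0.03 (-0.06 relative to genes of like length). The 5 listed for the central protuberance had 2 of 5 higher and a median of -0.17 (-0.09 relative to genes of like length). The 3 paralogs of bacterial S18, which are separate genes in mammals, were also apart. Mrps18a and Mrps18b were at 0.30 and 0.21, while Mrps18c had 3676 control and 2487 erythrodiol counts, a log2 ratio of -0.58. The 3 values were -0.25 for Mrps18c, 0.29 for Mrps18b and 0.50 for Mrps18a relative to genes of like length. Of these, Mrps18b and Mrps18c were chosen after their values were seen, as were Mrps24, Mrps10 and Mrps9.

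Members of established role had values on both sides of 0, and variants in the human counterparts of Mrps22, Mrps34, Mrpl3 and Mrpl44 are known causes of mitochondrial disease. Mrps22, a small subunit protein, had 3000 control and 2358 erythrodiol counts, a log2 ratio of -0.37 (-0.35 relative to genes of like length). Mrps34, another small subunit protein, had 2419 and 2742 counts (0.16, and 0.34). Mrpl3, which lies close to the site of peptide bond formation, had 2092 and 2295 counts (0.11, and 0.08). Mrpl44, a large subunit protein with a ribonuclease III-like fold, had 1941 and 2224 counts (0.18, and 0.15). Mrps30, which carries the name of the small subunit but sits in the large subunit, had 2638 and 2702 counts (0.01, and -0.04). Mrps22 was lower under either scaling, Mrps34 and Mrpl44 stayed within 0.02 of 0 under TMM, and Mrpl3 and Mrps30 were below 0 there.

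GC content went together with the length-relative values. Transcript GC, taken from GENCODE for all 78 members, had a Spearman's rho of 0.49 with the log2 ratio relative to genes of like length, and 0.36 over 2061 non-members under 1500 bases. The points share libraries and base composition, and the relation is a description. The 26 members of lowest GC (41.4% to 48.6%) had a median of -0.16 relative to genes of like length, the middle 26 0.11 and the 26 of highest GC (52.8% to 60.6%) 0.24. When each gene was set against the 100 genes nearest in GC among the 1000 nearest in length, these medians were -0.05, 0.08 and 0.08. The median of the family was then -0.01. Mrps14 was at -0.82, Mrpl12 at -0.73, Mrpl41 at -0.72, Mrps28 at -0.68, Mrpl35 at -0.55 and Mrps33 at -0.48 on that scale, and Mrps36 was at 0.64, Mrps18a at 0.36, Mrpl34 at 0.28 and Mrps12 at 0.26. The 6 lowest and these 4 highest genes thus kept their sign.

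**Figure D4:**
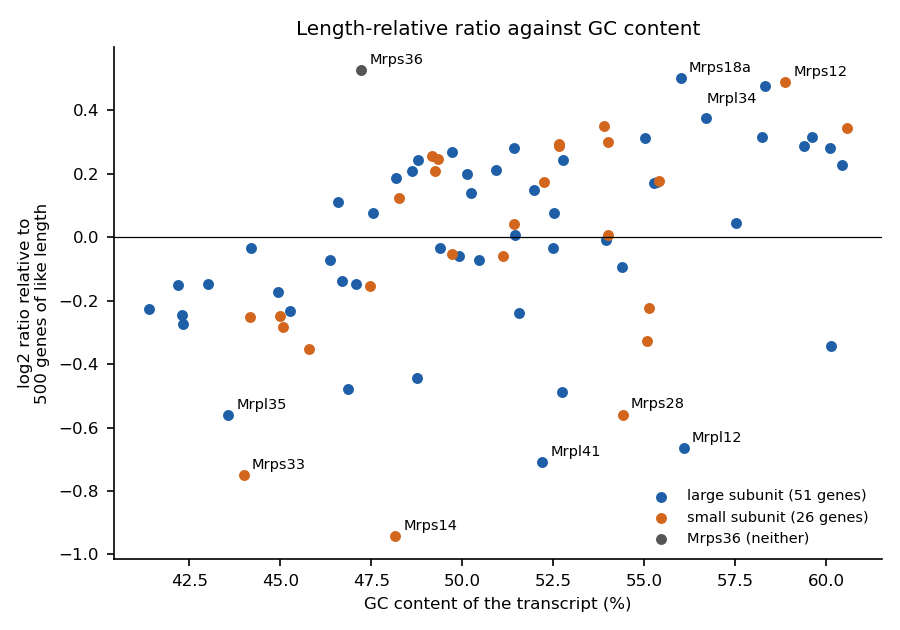
Log2 ratio relative to the 500 genes of like length (y axis) of the 78 genes against the GC content of the transcript in percent (x axis), coloured by subunit. Mrps18a, Mrpl34 and Mrps12 lie at high GC and the top, Mrps36 at the top with 47.2% GC, and of the lowest genes Mrps14 and Mrps33 have 48.2% and 44.0% GC and Mrpl41, Mrpl12 and Mrps28 between 52.2% and 56.1%.

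Other genes of mitochondrial translation were described beside the members. Of 69 listed, 67 had at least 100 counts, with a median log2 ratio of 0.08 and 43 of 67 (64.2%, against 71.2% of all genes) higher with erythrodiol. The median was below 0 under the 3 other scalings, at -0.08 under TMM. Relative to genes of like length the median was -0.02. The 10 translation factors summed to 281 CPM in the control and 330 with erythrodiol, the 20 genes of tRNA charging to 321 and 364, and the 25 genes of assembly and rRNA modification to 332 and 342. Of the 10 translation factors, 6 were higher, with a median log2 ratio of 0.09 and of 0.05 relative to genes of like length. Tufm and Gfm1, elongation factors that work on this ribosome, had 8703 and 11096 and 8840 and 11538 counts, log2 ratios of 0.33 and 0.36. Tsfm, another elongation factor, had 1005 and 1028 counts, a log2 ratio of 0.01. Tufm, Gfm1 and Tsfm were chosen after their values were seen. At least 25% higher were 15 genes (22.4%, against 24.4% of all genes) and at least 20% lower 7 (10.4%, against 8.89%). These genes are longer than the members, with a median of 2177 bases. The highest ratios were those of Sars2 (0.48) and of Gatc, a subunit of the amidotransferase that completes glutaminyl-tRNA, with 2150 and 2937 counts (0.43).

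The lowest of these genes were Slirp and Chchd1, both short. Slirp, which binds mitochondrial messengers as the partner of Lrpprc, had 2728 control and 1493 erythrodiol counts, a log2 ratio of -0.89. Lrpprc itself, named after its value was seen, had 11074 and 14265 counts, a log2 ratio of 0.34, so that the 2 genes of this complex lay on opposite sides of 0. Relative to genes of like length, they were at -0.55 and 0.12. Chchd1, a small subunit protein without an Mrp symbol, had 3504 and 2107 counts (-0.75, and -0.43 relative to genes of like length). The 5 ribosomal proteins without an Mrp symbol summed to 185 and 154 CPM (-0.26), but their median was -0.01, with 2 of 5 higher. Besides Chchd1, Aurkaip1 was low, with 7962 and 5448 counts (-0.57). Dap3, Gadd45gip1 and Ptcd3 were at -0.01, 0.04 and 0.04. Relative to genes of like length, 0 of 5 were above (50% of all genes), and these last genes were at -0.06, -0.03 and -0.11. Apart from Chchd1, they were named after their values were seen.

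Values of other groups of short, abundant genes are given beside those of the family. Cytosolic ribosomal protein genes, 81 of them, had a median log2 ratio of -0.42, with 10 higher, and of -0.23 relative to genes of like length. Nuclear genes of oxidative phosphorylation, 78 of them, had a median of -0.28, with 16 higher, and of -0.09 relative to genes of like length. Members were at 0.01 and 0.02 on these scales. The SD over genes on the second scale was 0.41 for the cytosolic ribosome, 0.34 for oxidative phosphorylation and 0.32 for the members. Median lengths were 730, 711 and 1056 bases. Summed levels of the members were lower, with 2118 CPM in the control against 17777 for the cytosolic ribosome and 10783 for oxidative phosphorylation. No test of these differences could be made with 1 value per gene and group.

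**Figure D5:**
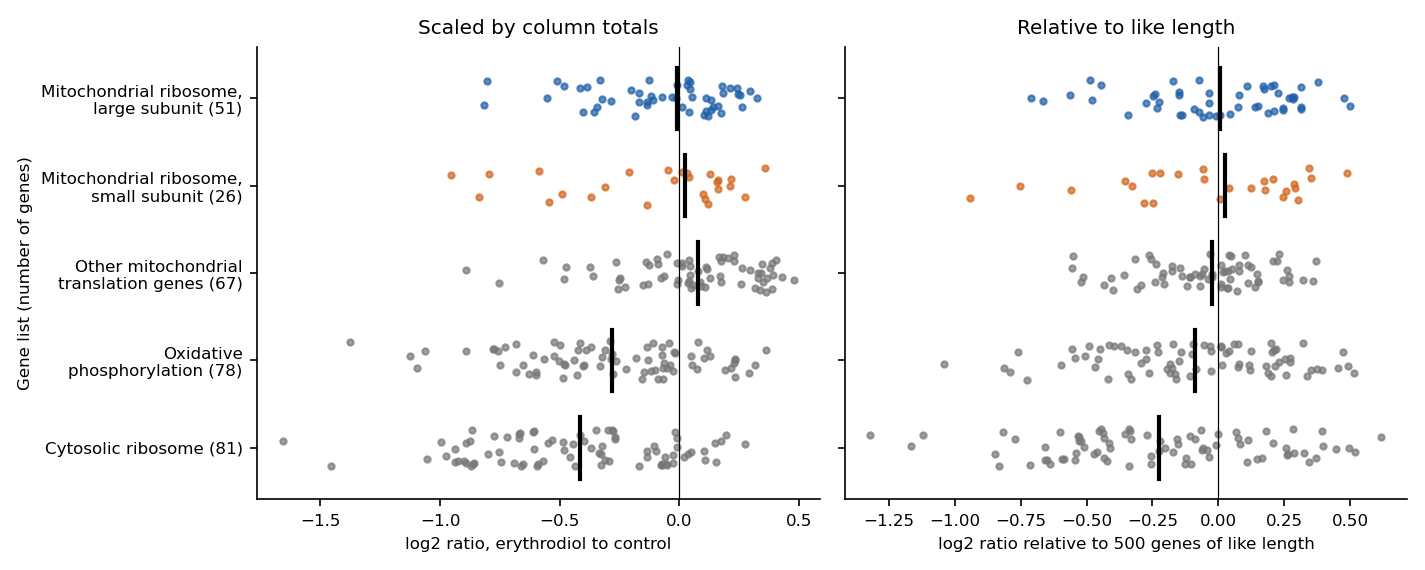
Log2 ratio of erythrodiol to control (left, x axis) and log2 ratio relative to 500 genes of like length (right, x axis) for 5 lists of genes, 1 point per gene, with a black bar at the median and points spread vertically for legibility. Medians of the large and small subunit of the mitochondrial ribosome lie near 0 in both panels, while that of the cytosolic ribosome is at -0.42 on the left and -0.23 on the right.

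Transcripts that the study added to the annotation were few in the family. The deposited file of added coding transcripts pools all libraries, so that groups cannot be compared. It held 17 transcripts in 11 of the 78 members (14.1%), against 35.8% of all genes with at least 100 counts and 29.1% of 929 non-members of like mean count and length. Mrpl1, a large subunit protein with a bacterial counterpart, had 3 added transcripts, with 3369 control and 3249 erythrodiol counts. Mrpl15, Mrpl27, Mrps2 and Mrps35 had 2 each. Mrpl27, which lies near the site of peptide bond formation, had 3576 and 3154 counts (-0.20), and Mrpl15 had 5007 and 5575 (0.13). The expected counts were exactly whole in both groups for 63 of the 78 members and had decimals for the 15 others, Mrpl41, Mrpl35 and Mrps6 among them.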

How the data were processed

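Liver RNA pools were sequenced by the authors on the BGISEQ-500 platform in paired-end mode, with 7 libraries per group. Per the labels and the study's methods, clean reads were mapped with HISAT, assembled with StringTie and Cufflinks, and counted with Bowtie2 and RSEM, and versions are not given in the sources used here. For genes the authors deposited expected counts, not normalized, as 1 sum per group. Per library, the authors deposited counts of clean reads and mapping rates in percent. The deposited gene lengths were used as they are. The deposited table also holds the authors' ratios and p-values per gene, which were not used. Genes encoded by mitochondrial DNA were not analysed here.

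Expected counts were divided by the column total, and the log2 ratio of erythrodiol to control was taken without a pseudocount for genes with at least 100 counts over both groups. The value relative to like length is that ratio minus the median of the 500 non-members nearest in length. RPKM was computed from the deposited counts and lengths. Counting intervals are exact binomial intervals (Clopper-Pearson, 95%) on counts rounded to whole numbers. The design gave no test, so genes at least 25% higher or 20% lower, or at least 2-fold apart, were counted. GC content was that of the GENCODE M21 transcript nearest to the deposited length. Promoters came from RefSeq, and the NRF1 and YY1 motifs were shortened to cores from those first listed. Computations were tested on simulated data. Software was Python 3.11.15 with scipy 1.17.1, numpy 2.4.6, pandas 2.3.3 and matplotlib 3.10.9, R 4.3.3, edgeR 4.0.16 and DESeq2 1.42.0, the last 2 for scaling factors only.

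Members and gene lists were chosen with earlier results of these data known. Named genes are the 6 members of highest and of lowest ratio relative to like length, the 5 of highest and 3 of lowest RPKM, 12 members of established role, the 3 with most added transcripts, and the 2 highest and 2 lowest other translation genes. Others are said to be chosen after their values were seen.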

Additional observations from a re-analysis of the deposited data

Results flagged for a closer look

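In control replicate 3, 64.33% of the clean reads mapped to genes, the lowest value of the 14 libraries. Its gap to the next control library was 0.588 of the range of the group, which is past Dixon's 95% limit for 7 samples, a limit that chance passes in about 1 group of 20. This library supplied 9.12% of the control sum, the smallest share of a control library, and its part in the values of the members was not tested.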

How the results depend on the processing

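No paired analysis was possible because the gene values are sums over each group and carry no replicate numbers, and for the same reason no library could be left out. Under TMM, the size factors of DESeq2 and column totals without the 20 genes of highest count, all ratios moved down by 0.16, 0.15 and 0.08 on the log2 scale. The summed log2 ratio of the members was then -0.25, -0.24 and -0.17 in place of -0.09, the median member -0.14, -0.13 and -0.0705 in place of 0.01, and the median of the other translation genes -0.0767, -0.0658 and -0.00424 in place of 0.08. Members with a higher count numbered 19, 19 and 30 in place of 40, and 0 were at least 25% higher under each of the 3. All 30 named members were lower than reported under each of the 3 scalings, and 8, 8 and 3 of them had the other sign. Relative to genes of like length, 7 members were at least 25% higher, and 4 relative to genes of like length and GC content, an alternative added after seeing the data, in place of 2. The median relative to genes of like length, 0.02, was 0.0372 with 200 genes nearest in length, 0.0445 with 20 classes of length, 0.00959 among genes of like mean count and -0.00988 with GC content. The median of the other translation genes was -0.0243 relative to genes of like length and 0.0682 with a minimum of 1000 counts. At least 2 added transcripts were held by 5 members in place of 11. The number at least 20% lower, 18, ranged from 12 to 26 over its alternatives, and 26 was the value under TMM. The 3 other scalings moved every gene down, and the shares of all genes past these limits under them are not given here. The counts of members under these scalings therefore cannot be set against all genes. Leaving out the minimum or adding a pseudocount of 1 changed none of the counts of members. The cause of these shifts other than by scaling was not tested. Counts of 834 and above per member and group gave intervals with a median width of 0.15 on the log2 scale, and the spread between pools is unknown.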
